A study of Saccharomyces cerevisiae with 24 samples.

Results

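SFC1 and ODC1 encode 2 carriers of the mitochondrial inner membrane, and their mRNA was followed in the yeast Saccharomyces cerevisiae in 12 RNA samples. The spots of SFC1 (YJR095W) and ODC1 (YPL134C) are 2 of the 6330 probes on a spotted array of open reading frames. Both genes were chosen by measured values, since each stood far up the list of increases between the 2 strains compared, so the strain difference of either gene is given here as a description without a test. V5 is a wine yeast that was ura3 and gal and was made prototrophic with an integrated URA3. V5.TM6*P is the same background, also with URA3, in which the hexose transporter genes HXT1 to HXT7 were deleted and a chimeric transporter, Tm6*, built from parts of Hxt1 and Hxt7, was integrated into the genome. The question was how transcript levels differ between a yeast that ferments glucose and a derivative that respires it. Cells of both strains were taken from aerated bioreactor cultures in minimal glucose medium at 6 levels of residual glucose, from 38.4 to 7.4 g/L in V5 and from 36.5 to 5.6 g/L in V5.TM6*P. Each RNA sample was amplified, labelled with radioactive phosphorus and hybridized to 2 arrays, 24 in all. The study states that each strain was grown in 2 independent fermentations, and the labels do not say which samples came from the same one. The 6 samples of a strain are therefore not 6 independent cultures. The p-values measure the spread between these 6 samples per strain, part of which follows the fall in glucose. V5.TM6*P is represented by this one engineered strain.

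Mitochondrial carriers are small membrane proteins that exchange metabolites between the mitochondrial matrix and the cytosol. Sfc1, also called Acr1, exchanges succinate for fumarate. It lets succinate made in the cytosolic glyoxylate cycle enter the mitochondrion, and yeast without it does not grow on ethanol or acetate. Odc1 is an oxodicarboxylate carrier that moves 2-oxoglutarate and 2-oxoadipate, which are precursors of glutamate and lysine. It has a close relative, Odc2, and a spotted open reading frame of ODC1 could also bind ODC2 RNA, so the ODC1 value is uncertain to that extent. Genes for the use of non-fermentable carbon are held low by glucose through the repressor Mig1 and raised by activators such as Cat8 and the Hap complex.

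In the R64 yeast assembly SFC1 lies on the plus strand of chromosome X at 609773 to 610741, a coding length of 969 bases. ODC1 lies on the minus strand of chromosome XVI at 298571 to 299503, a coding length of 933 bases. Upstream elements that the study's site table writes for the 2 genes are shown for Cat8 and Mig1, which are among the regulators named above. The study also predicts sites of the Hap complex for both genes, and these are not shown here. SFC1 has 4 elements of the Cat8-related pattern CCNNNNNNCCG and ODC1 has 2. The fixed letters of that pattern are in capitals, and the strand is that in which the table writes them. The study calls the pattern generic and found it in many induced genes. It did not count ODC1 among the genes with a typical Cat8 motif, but lists a Cat8 site for it by a sequence shared with IDP2. For both genes it also cites published chromatin immunoprecipitation data for Cat8.
SFC1 element: CCattcaaCCG
SFC1 element: CCattaaaCCG
SFC1 element: CCatttctCCG
SFC1 element: CCggtaaaCCG
ODC1 element: CCattagaCCG
ODC1 element: CCgctggcCCG
The closest pair across the genes, CCattaaaCCG of SFC1 and CCattagaCCG of ODC1, shared 10 of 11 letters. Each gene also has 1 element of the Mig1 type, shown with the GGGG core in capitals, and these shared 9 of 10 letters.
SFC1 Mig1 element: atcctGGGGg
ODC1 Mig1 element: atcctGGGGt
The share of all yeast promoters with such letters was not computed here, and a match is a description of the sequence only.

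Over the 24 arrays the median spot had a net intensity, spot minus local background, between 11.4 and 22.9 scanner units, on a local background between 12.1 and 31.5. Between 5.11% and 7.89% of spots per array carried the image software's mark for an empty spot. Of the deleted transporter genes, HXT2 was lower in V5.TM6*P than in V5 by a factor of 2.57 and HXT3 by a factor of 1.74, with adjusted p-values of 0.0051 and 0.0031 in the limma fit. HXT3 kept a log2 level of 5.32 to 5.85 in V5.TM6*P against 6.03 to 6.53 in V5, so the deletion shows as a partial loss of signal at these spots. HXT genes are alike enough to bind each other's RNA. Among other deleted genes the study reports HXT1 and HXT4 lower but HXT6 higher in V5.TM6*P, and it expects cross reactivity between them. The image names of 3 V5.TM6*P arrays, both of the 36.5 g/L sample and 1 of the 34.8 g/L sample, carry another code than those of the other 21. That code is taken here for a print lot, which no label states, and the sample titles give the same code for all 24 arrays. On these 3 arrays SFC1 read 3.34 to 3.75 against 2.70 to 3.60 on the other 9, and ODC1 read 3.13 to 3.63 against 2.88 to 3.92. On the other 21 arrays the array numbers in the sample titles run on from V5.TM6*P to V5 and, within each strain, from high to low glucose, so over these arrays an effect of array order cannot be told apart from strain or glucose.

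SFC1 gave a weak spot in V5 and a strong one in V5.TM6*P. In V5 its net intensity was 2.74 at the lowest, 7.76 at the median and 15.0 at the highest of 12 arrays, over a local background of 12.8 to 35.1. In V5.TM6*P it was 72.8, 160 and 234. No array of either strain carried the empty mark at this spot and none fell under the floor of 0.1, but in V5 the net intensity passed 3 SDs of the local background on only 2 of 12 arrays. ODC1 was measured more firmly in V5, where its net intensity was 6.08 at the lowest, 23.6 at the median and 50.3 at the highest, past 3 SDs of the background on 10 of 12 arrays. In V5.TM6*P it was 94.97, 158 and 257. For both genes the dimmest V5.TM6*P array was brighter than the brightest V5 array. Both genes were chosen by this contrast, so nothing is read from that separation, here or in the levels below. The share of all probes that separate in this way was not computed. All 12 V5.TM6*P arrays passed 3 SDs at both spots.

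**Figure D1:**
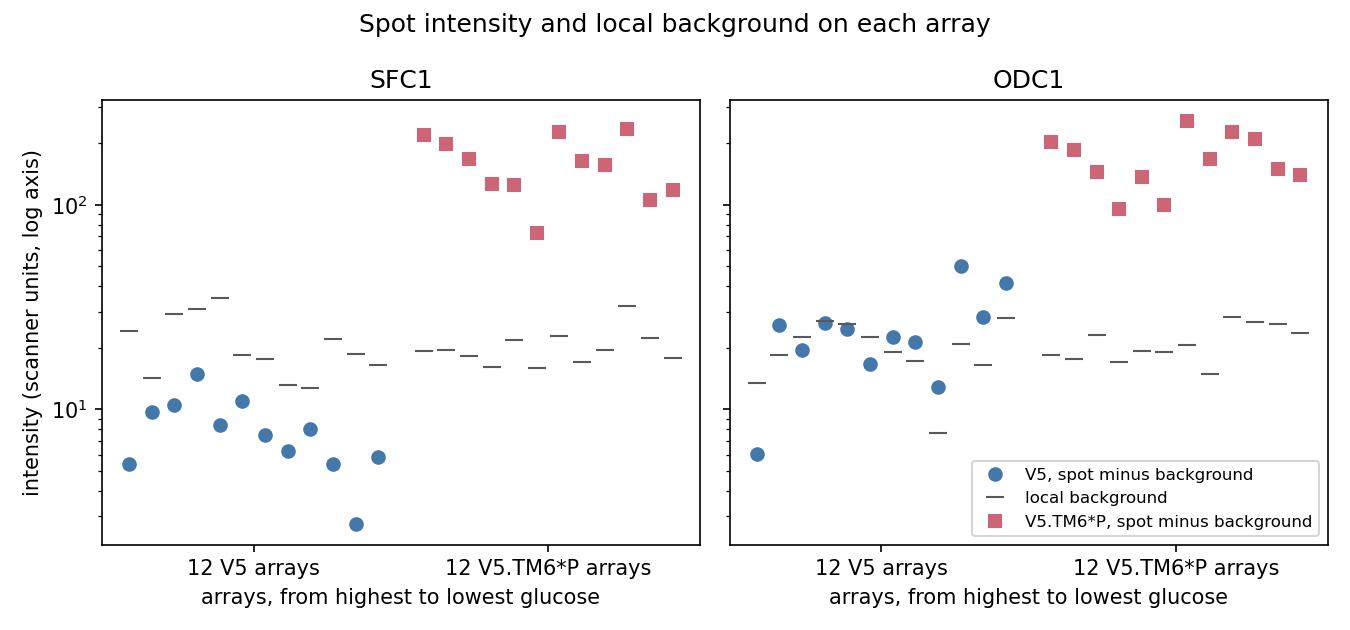
Spot intensity minus local background (circles for V5, squares for V5.TM6*P) and local background (dashes) on each of 24 arrays, in scanner units on a log axis, for SFC1 (left) and ODC1 (right). The V5 points of SFC1 lie under the local background, at 2.74 to 15.0, and all V5.TM6*P points of both genes lie well above it.

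Levels below are log2 net intensities with the array median set to 0, averaged over the 2 arrays of a sample. SFC1 in V5 read -1.22 at 38.4 g/L glucose, -0.54 at 35.0, -0.71 at 25.5, -1.03 at 24.4, -1.15 at 10.5 and -1.82 at 7.4 g/L. The lowest glucose gave the lowest level, but below 35.0 g/L no array passed 3 SDs of the local background, so the order of these samples cannot be read. With each array raised to 3 SDs where it was under them, an alternative added after seeing the data, the 6 V5 samples lay between -0.95 and -0.13 with no steady course. In V5.TM6*P SFC1 read 3.69 at 36.5 g/L, 3.32 at 34.8, 2.96 at 26.3, 3.46 at 25.1, 3.49 at 13.5 and 2.91 at 5.6 g/L. These 6 values had no steady course, and the lowest of them stood 3.45 above the highest V5 value.

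ODC1 followed another course in V5. It read -0.43 at 38.4 g/L glucose, 0.32 at 35.0, 0.38 at 25.5, 0.64 at 24.4, 0.80 at 10.5 and 1.28 at 7.4 g/L, higher at each of the 5 steps down in glucose, also with the arrays raised to 3 SDs. Of all 6330 probes, 23 (0.363%) were higher at every step in V5 and 9 in V5.TM6*P, while 33 and 8 were lower at every step. The labels do not say which samples share a fermentation, so a step may compare different cultures. In V5.TM6*P ODC1 read 3.59 at 36.5 g/L, 3.00 at 34.8, 3.26 at 26.3, 3.57 at 25.1, 3.68 at 13.5 and 3.28 at 5.6 g/L. There the order of the samples did not follow glucose, and the lowest value stood 1.72 above the highest in V5.

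The 2 arrays of a sample agreed less well where the genes were dim. For SFC1 they differed by 0.11 to 1.16 on the log2 scale in V5, with a median of 0.75, and by 0.05 to 0.53 in V5.TM6*P, with a median of 0.24. For ODC1 they differed by 0.07 to 1.92 in V5, with a median of 0.52, and by 0.10 to 0.48 in V5.TM6*P, with a median of 0.18. The widest difference was that of ODC1 in the V5 sample at 38.4 g/L, where 1 array read -1.39 and the other 0.53. That sample is the low end of the ODC1 course in V5.

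**Figure D2:**
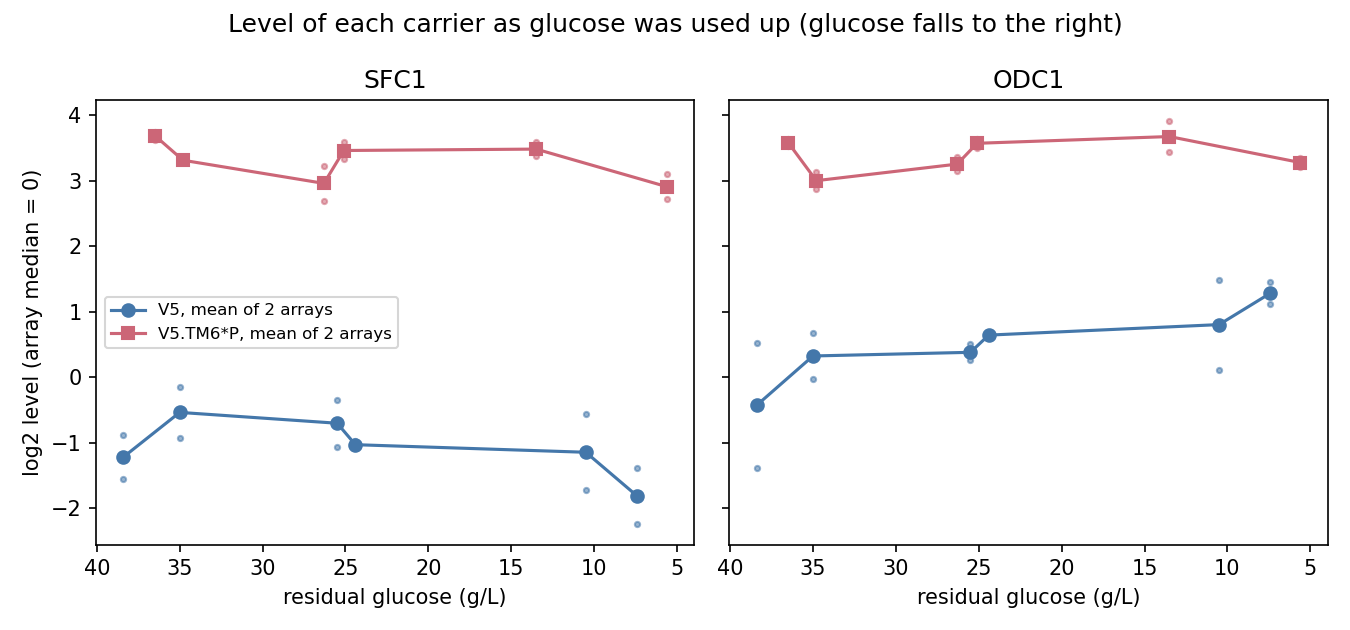
Log2 level of SFC1 (left) and ODC1 (right), array median set to 0, against residual glucose in g/L with glucose falling to the right; large points are the mean of 2 arrays, small points the single arrays, circles V5 and squares V5.TM6*P. ODC1 in V5 climbs from -0.43 to 1.28, SFC1 in V5 lies between -1.82 and -0.54 with most arrays within 3 SDs of the background, and both genes stay between 2.91 and 3.69 in V5.TM6*P.

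The 6 V5 samples had a mean SFC1 level of -1.08 ± 0.45 (SD). In the 6 samples of V5.TM6*P the mean was 3.30 ± 0.31 (SD). The difference was 4.38 ± 0.22 (SE) on the log2 scale, a factor of 20.9, and came second among the increases of all probes, after STL1, a glycerol transporter. ODC1 averaged 0.50 ± 0.57 (SD) over the V5 samples and 3.40 ± 0.26 (SD) over those of V5.TM6*P. This was a difference of 2.90 ± 0.25 (SE) or a factor of 7.45, which placed it 11th. Of 6330 probes, 430 (6.79%) were called higher in V5.TM6*P and 342 (5.40%) lower at an adjusted p under 0.05 by limma. The contrast that gives these figures is the one by which both genes were selected, so nothing is read from their place in it. With the normexp background model, which adds an offset of 50 units, the differences were 1.78 for SFC1 and 1.51 for ODC1. With V5 arrays raised to 3 SDs of the background the SFC1 difference was 3.88, so that SFC1 was at least 14.8-fold higher in V5.TM6*P, and that of ODC1 was 2.85, a factor of 7.23. Both genes remained higher in V5.TM6*P under every setting tried.

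The strain difference was also taken at like glucose, over the 2 samples per strain at the highest, middle and lowest glucose. For SFC1 only bounds can be given, since 2 of 4 V5 arrays at the highest glucose and 0 of 4 in each of the other ranges passed 3 SDs of the background. With V5 raised to 3 SDs SFC1 was at least 17.1-fold, 13.5-fold and 14.0-fold higher in V5.TM6*P in these ranges, and no order is read from bounds. For ODC1, where 3, 3 and 4 of 4 V5 arrays passed, the factors were 10.2, 7.49 and 5.41. The ODC1 factor was smaller at lower glucose, where the V5 mean was 1.04 against -0.05 at the highest, while the V5.TM6*P mean went from 3.29 to 3.48. With 2 samples per strain in each range these factors carry no test.

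The slopes on glucose, which took no part in choosing the genes, were tested in a second fit with 1 line per strain. ODC1 in V5 had a slope of -0.0414 ± 0.0104 (SE) log2 units per g/L, a rise of 0.41 for each 10 g/L of glucose used and 1.28 over the range sampled, with an adjusted p of 0.15 in limma. SFC1 in V5 had a slope of 0.0224 ± 0.0123 (SE), with an adjusted p of 0.52, and of 0.0006 with the arrays raised to 3 SDs of the background. Neither slope passed the threshold after adjustment over all probes. In V5.TM6*P the slope of ODC1 was -0.0039 ± 0.0109 (SE) with an adjusted p of 0.98 and that of SFC1 was 0.0133 ± 0.0128 (SE) with an adjusted p of 0.95. The slope in V5.TM6*P minus that in V5 was 0.0375 ± 0.0151 (SE) for ODC1, adjusted p 0.57, and -0.0091 ± 0.0177 (SE) for SFC1, adjusted p 0.92. The 95% intervals of these differences, before adjustment, ran from 0.0041 to 0.0709 for ODC1 and from -0.0485 to 0.0302 for SFC1, so a difference in the slope of SFC1 of either sign was not excluded.

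Few probes passed this test at all. In V5 1 probe of 6330 (0.0158%) had a slope past the threshold by limma, and 770 had an unadjusted p under 0.05. The 1 probe was HXK1, hexokinase isoenzyme 1, with a slope of -0.127 ± 0.0141 (SE) and an adjusted p of 0.020. In V5.TM6*P the slopes of 0 probes (0%) and for the difference of slopes again 0 (0%) passed, with 378 and 515 at an unadjusted p under 0.05. When the limma variance was allowed to follow the mean level, 76 probes passed in V5 and ODC1 was among them with an adjusted p of 0.037. Over the other settings its adjusted p in V5 stayed between 0.083 and 0.93, and the slope stayed negative in all of them.

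The SFC1 and ODC1 spots can also be read as a ratio on the same arrays. Levels of different spots cannot be set against each other, so only changes of the ratio between samples are meaningful. In V5 the log2 ratio was -0.79, -0.86, -1.08, -1.68, -1.95 and -3.10 from the highest to the lowest glucose. Since SFC1 passed 3 SDs of the background on only 2 of 12 V5 arrays, and read 1.14 and 1.45 SDs at 7.4 g/L, no course is read from these ratios. With SFC1 and ODC1 raised to 3 SDs they were -0.63, -0.69, -0.51, -1.59, -1.43 and -1.88, not lower at every step. In V5.TM6*P it was 0.11, 0.31, -0.29, -0.11, -0.19 and -0.37. The lowest of these, -0.37, lies above the highest V5 ratio, which was -0.79, or -0.51 when raised. Nothing is read from that separation, since both genes were chosen by the strain contrast. The share of other probe pairs that separate was not computed. The mean ratio was -1.58 ± 0.88 (SD) over 6 V5 samples against -0.09 ± 0.26 (SD) over 6 V5.TM6*P samples, and the difference of 1.49 is that by which the strain difference of SFC1 exceeded that of ODC1. With normexp it was 0.28, and with the arrays raised to 3 SDs 1.03. The ratio was examined after its values had been seen and is given without a test.

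**Figure D3:**
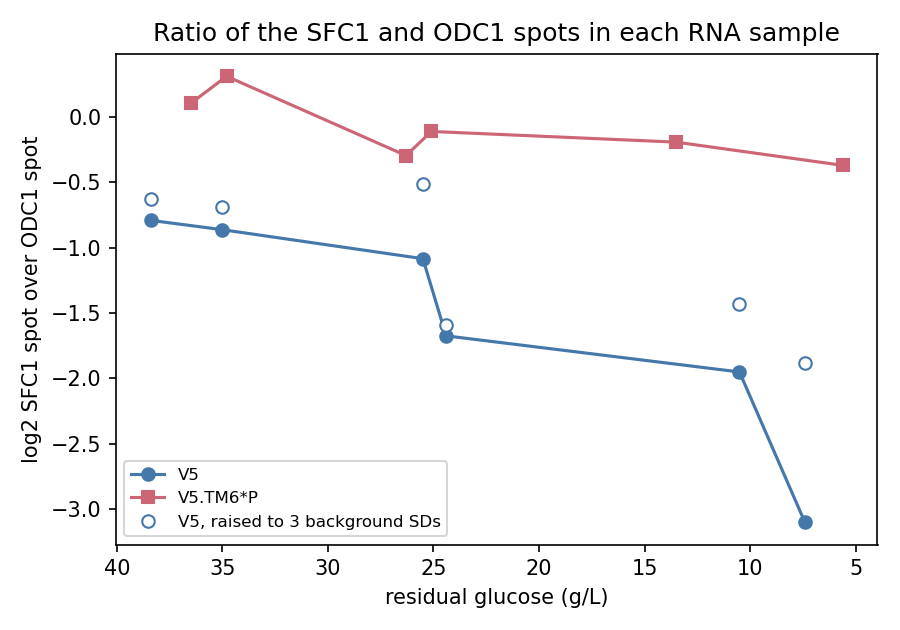
Log2 ratio of the SFC1 spot to the ODC1 spot in each of 12 RNA samples (mean of 2 arrays) against residual glucose in g/L, falling to the right; circles are V5, open where raised to 3 SDs of the local background, and squares V5.TM6*P. The V5 ratio lies between -3.10 and -0.79, or between -1.88 and -0.51 when raised, and the V5.TM6*P ratio stays between -0.37 and 0.31.

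Over the 12 samples the levels of SFC1 and ODC1 had a Pearson r of 0.942, which mostly holds the strain difference they share. After each strain mean was subtracted r was -0.209, with -0.468 over the 6 V5 samples and 0.604 over the 6 V5.TM6*P samples. These are descriptions over samples that share a course of glucose. The median of the other 354 probes placed on chromosome X was 0.34 to 0.56 in V5 and 0.18 to 0.26 in V5.TM6*P, lower where SFC1 was higher, and relative to it the SFC1 difference was 4.61.

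The files used here name no gene at a spot, and names could be given to 919 of 6330 probes, those of genes that the study had tabulated from these same samples. Of the named probes 357 (38.8%) were higher in V5.TM6*P and 241 (26.2%) lower, and their median difference was 0.43, against -0.05 over all probes. The counts below are to be read against these shares. Most named genes had passed in the study, which used other intensities of the same arrays, so a gene said not to pass did not pass in the fit used here. Genes that the study had not tabulated could not be named, so the counts leave out mostly genes that had not passed there. Of 34 other genes of the mitochondrial carrier family, 10 were named, of which 6 rose, 1 fell and 3 did not pass, with a median of 0.69. CRC1, the carnitine carrier, rose by a factor of 2.47 (adjusted p 0.011 in limma) and AAC1, an ADP/ATP carrier, by 2.41 (0.0018). OAC1, the oxaloacetate carrier, fell by a factor of 1.86 (0.0064). DIC1, the dicarboxylate carrier that takes succinate and malate, had a factor of 1.55 and did not pass (0.10). CRC1 passed 3 SDs of the background on 4 of 12 V5 arrays, so its factor is less certain. None of the 10 had a difference as large as those of SFC1 and ODC1.

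Most of the genes that could be named for enzymes of the substrates of both carriers rose with them. Of 11 genes for succinate and fumarate enzymes, 9 were named and 8 rose, with a median log2 difference of 1.90. SDH4, a subunit of succinate dehydrogenase, rose by a factor of 4.95 (adjusted p 0.00053 in limma), SDH2 by 4.10 (0.00042) and FUM1, the fumarase, by 3.73 (2.6e-05). Only EMI5, a factor needed for assembly of succinate dehydrogenase, did not pass, with a factor of 1.62 (0.054). Of 13 genes for 2-oxoglutarate enzymes, 6 were named and all 6 rose, with a median of 1.45. IDP2, the cytosolic isocitrate dehydrogenase that makes 2-oxoglutarate, rose by a factor of 4.06 (0.00032) and KGD2, a subunit of the 2-oxoglutarate dehydrogenase complex, by 3.70 (0.00011). None of the 9 genes of lysine synthesis could be named here.

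In the glyoxylate cycle and gluconeogenesis, 6 of 7 genes were named and 5 rose, with a median of 1.80. MLS1, malate synthase, rose by a factor of 3.25 (adjusted p 0.00062 in limma). FBP1, fructose-1,6-bisphosphatase, rose by a fitted factor of 8.16 (0.0044) and PCK1, phosphoenolpyruvate carboxykinase, by 5.33 (0.00064), but FBP1 passed 3 SDs of the local background on 1 and PCK1 on 2 of 12 V5 arrays, so the size of these 2 factors is uncertain. ICL1, isocitrate lyase, which makes the succinate of the cycle, had a factor of 1.25 and did not pass (0.31), whereas the study lists it as induced. Of 9 regulators 2 were named, and HAP4, the regulatory subunit of the Hap complex, rose by a factor of 2.14 (0.0015) and HAP5, a DNA-binding subunit, by 1.52 (0.020). CAT8 was not among those named. The study reports CAT8 lower in V5.TM6*P, short of its threshold, and calls this unexpected. Since the study had tabulated the named genes on the same samples, the counts are no independent evidence of a direction.

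**Figure D4:**
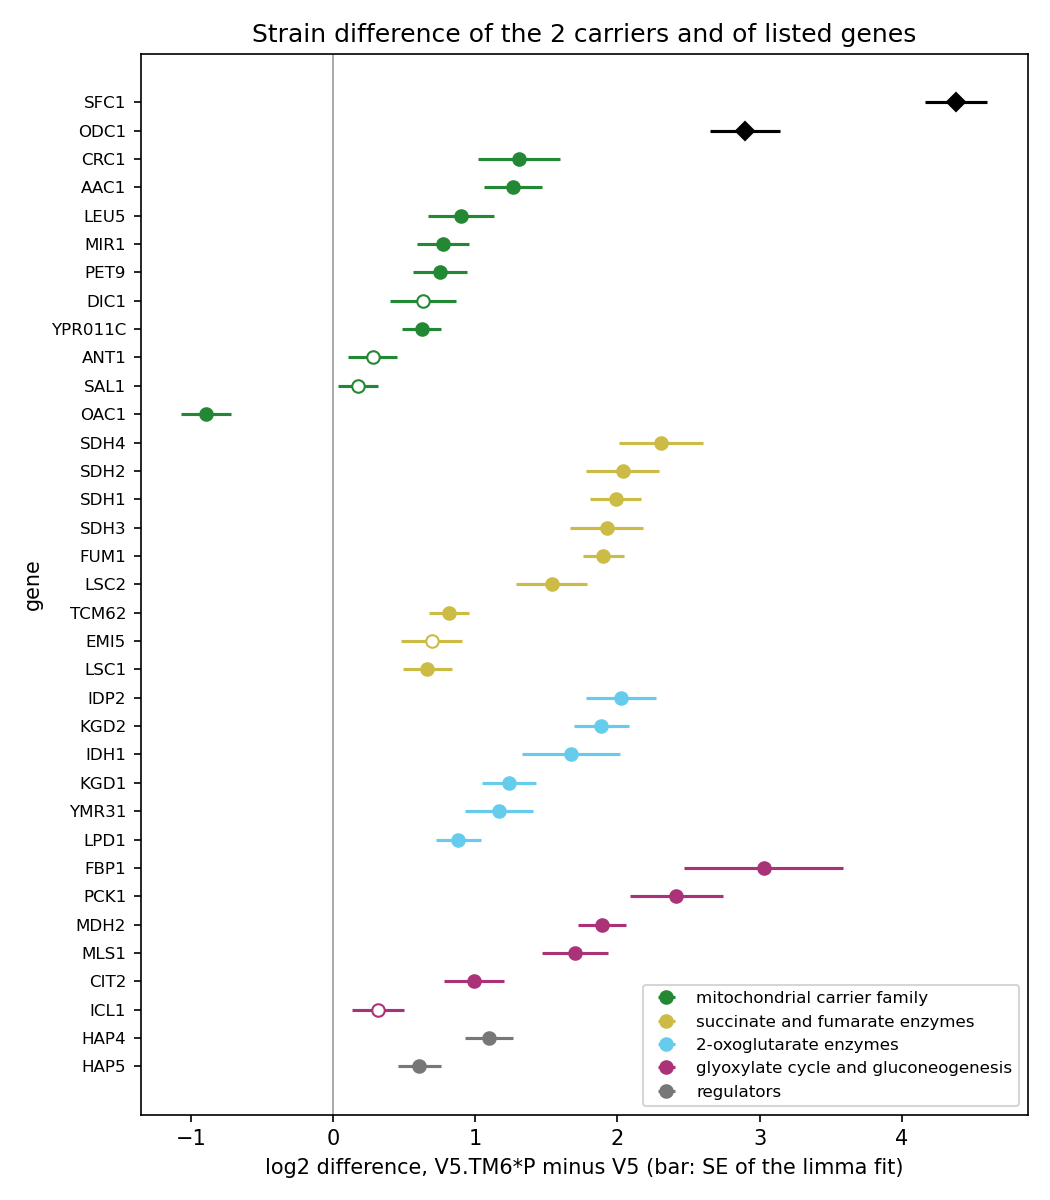
Log2 difference V5.TM6*P minus V5 of SFC1 and ODC1 (black diamonds) and of the named genes of 5 lists (circles, filled where the limma adjusted p is under 0.05), with the SE of the fit as bars. SFC1 at 4.38 lies to the right of all listed genes, FBP1 at 3.03 is the one listed gene past ODC1 at 2.90, and OAC1 at -0.90 is the one to the left of 0.

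The slopes of these genes were set beside those of all probes, of which 48.4% were negative in V5 and 48.5% in V5.TM6*P. The share among the named probes alone, most of which had passed in the study, was not computed. All 9 named succinate and fumarate genes had negative slopes in V5, with a median of -0.0208, and 5 of the 6 named 2-oxoglutarate genes did, with a median of -0.0231. In the carrier family 7 of 10 slopes were negative and in the glyoxylate cycle and gluconeogenesis list 3 of 6. In V5.TM6*P the negative slopes were 5 of 9 for the succinate and fumarate genes, 5 of 6 for the 2-oxoglutarate genes, 6 of 10 for the carriers and 5 of 6 for the glyoxylate cycle and gluconeogenesis. None of the slopes of listed genes passed the threshold in either strain, and the median slope over all probes was 0.0006 in V5 and in V5.TM6*P alike.

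**Figure D5:**
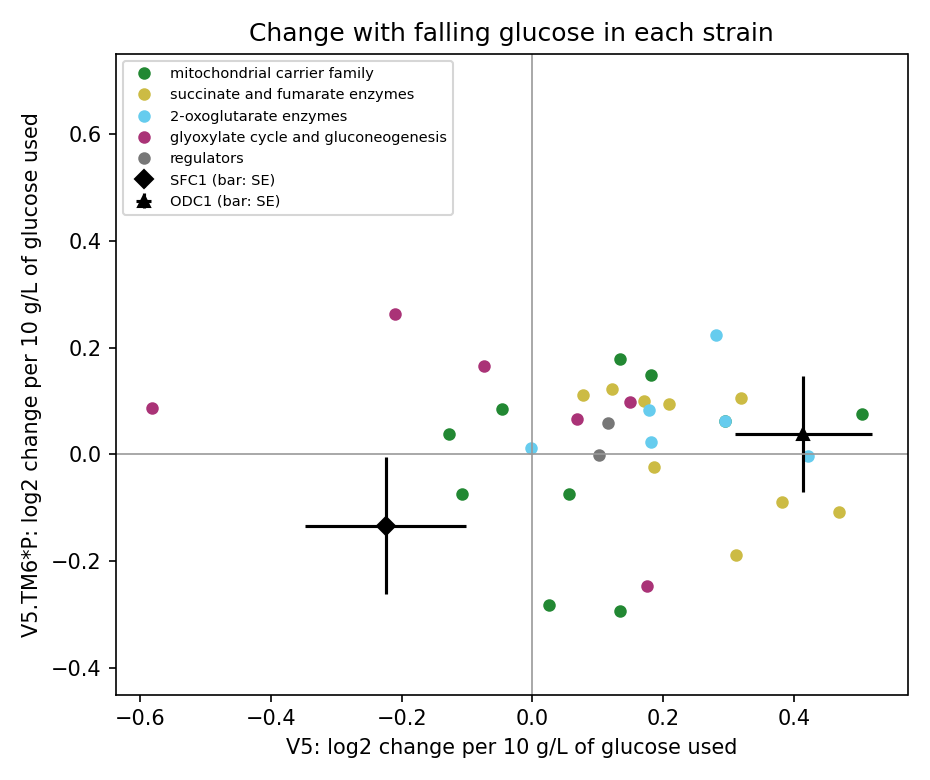
Change in log2 level per 10 g/L of glucose used in V5 (horizontal axis) and in V5.TM6*P (vertical axis) for SFC1 (diamond) and ODC1 (triangle), each with the SE of its slope as bars, and for the named genes of 5 lists (circles). ODC1 lies at 0.41 in V5 near YMR31 and SDH2, and SFC1 lies at -0.22; no slope shown passed the test.

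Of the named probes, those most like SFC1 over the 12 samples were PUT4, the proline permease (Pearson r 0.971), PEP12, an endosomal syntaxin (0.967), MDH2, cytosolic malate dehydrogenase (0.966), DAL2, allantoicase (0.964), and OM14, a protein of the mitochondrial outer membrane (0.958). Those most like ODC1 were GUT1, glycerol kinase (0.990), OM45, another outer membrane protein (0.986), IRS4 (0.977), ZTA1 (0.975) and TIM11, a subunit of the mitochondrial ATP synthase (0.973). After each strain mean was subtracted, those closest to ODC1 were HSP60, the mitochondrial chaperonin (0.953), RPT4, a proteasome subunit (0.909), CHS2, a chitin synthase (0.877), HXK1 (0.876) and CYT2, a haem lyase (0.871). Those closest to SFC1 had a lower r and were DCG1 (0.807), YER130C (0.806), YLR162W (0.802), BMS1 (0.772) and YOL103W-A (0.747), the last of which belongs to a family of near-identical Ty elements and is uncertain on an array of this kind. These r values, chosen as the highest among 918 probes over 12 samples, have no test.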

How the data were processed

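Per the file headers, the authors quantified phosphor screen images with ImaGene 5.6.2, and the deposited scanner files give the median intensity of each spot and of its local background for 9600 spots, with the SD of that background and an empty spot mark. The deposited value table holds background-subtracted intensity for 7477 of these spots after a scaling that is not stated, and served as an alternative. The arrays carry no counts, so their number limits the precision. Net intensities, spot minus background, were given a floor of 0.1 and put on a log2 scale, the 2 spots of each of 1147 paired probes were averaged, the median of each array over 6330 probes was subtracted, and the 2 arrays of a sample were averaged. These are the steps of the study's methods, but the floor was put here on scanner intensities, 1.49% of which lay under it, against 5.04% in the value table. Spots were named by matching values recomputed from the value table to the 711 genes of one gene table of the study, of which 711 matched, and by value and place in the print order to those of others (201 of 209 and 7 of 130). Those tables hold the authors' fold changes, used only to find names. Of the 919 named probes 865 matched R64 RefSeq locus tags.

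Strains were compared with limma 3.58.1 in R 4.3.3 (lmFit, eBayes, Benjamini-Hochberg adjustment over all probes, threshold 0.05), and slopes were fitted with 1 intercept and 1 slope per strain. The fits were run on simulated data with independent noise between samples. That does not show how small a slope they can find in samples that may share a fermentation. The members and gene lists were chosen with earlier results of these data known. Named genes are the 2 members, up to 4 examples per list, the 5 most correlated named probes per measure, and HXK1, HXT2, HXT3 and STL1, chosen after their values were seen. Alternatives were the floor, quantile and normexp normalization, the value table, leaving out marked spots, the other print lot, low glucose points or each sample, arrays as a random block, a variance trend, log2 glucose, the chromosome X median and a block for the sample number. Same-numbered samples of the strains have similar glucose levels, and the labels name no other link between them.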

Additional observations from a re-analysis of the deposited data

How the results depend on the processing

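SFC1 and ODC1 were higher in V5.TM6*P under every alternative. The SFC1 difference lay between 4.23 and 4.49 with 1 sample left out, the ODC1 difference between 2.71 and 3.05, and their gap between 1.18 and 1.64. Normexp gave 1.78, 1.51 and 0.28. With the members raised to 3 SDs of the local background, added after seeing the data, the SFC1 difference was 3.88 and the SFC1 slope difference 0.0127. No other setting moved the strain differences by the spread between samples. With the sample number as a replicate block the count of probes called between strains was 506 in place of 772, and without the 2 lowest glucose points 471, while 1 sample left out gave 576 to 727. Same-numbered samples of the strains deviated together with r of 0.020 to 0.053 over all probes, and 5 of 6 V5 samples correlated best with their own number. The slopes were too uncertain for a sign in SFC1. Without the 2 lowest glucose points the SFC1 slope in V5 was -0.0078 and the slope difference 0.0365, normexp turned that difference to 0.0074, and leaving out 1 sample gave -0.0255 to 0.0063, positive without V5 at 7.4 g/L. The ODC1 slope in V5 was -0.0479 to -0.0306 with 1 sample left out (adjusted p 0.16 to 0.49) and passed only with the variance trend, at -0.0414 and 0.037. In V5.TM6*P the ODC1 slope was 0.0028 from the value table and -0.0158 to 0.0043 with 1 sample left out. The count of probes with a slope in V5 depended most on the setting. It was 6 with a floor of 1, 7 without a floor, 96 with normexp, 8 from the value table, 10 without marked spots, 140 over 24 arrays with the RNA sample as random block, 2 without the other print lot, 0 without the 2 lowest glucose points, 76 with the variance trend, 4 with log2 glucose and 0 to 4 with 1 sample left out. The consensus correlation between arrays of a sample was 0.088. In V5.TM6*P the count was 1 with normexp, 3 over 24 arrays, 1 with the variance trend and 1 with log2 glucose, and for the difference of slopes 2 from the value table, 5 over 24 arrays and 2 with the variance trend. The causes of these shifts were not tested. SFC1 in V5 is limited by signal over background.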
